A study of Mus musculus with 4 samples.

Results

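The flat alveolar type I (AT1) cells and the cuboidal alveolar type II (AT2) cells of the adult mouse lung were compared across all genes, from 1 single-cell RNA library of each. Of the 9519 cells in the 4 libraries of the study, 3430 came from these P60 (postnatal day 60) libraries, and 3231 of them were kept. A cell was kept when its summed share of marker transcripts was at least 50% of the median of its library. The AT1 markers were Ager, Hopx, Pdpn, Aqp5, Rtkn2, Clic5, Akap5 and Emp2, and the AT2 markers were Sftpc, Sftpb, Sftpa1, Slc34a2 and Lamp3. This kept 1220 of 1337 cells of the AT1 library (91.2%, exact 95% binomial interval 89.6 to 92.7) and 2011 of 2093 cells of the AT2 library (96.1%, 95.2 to 96.9).

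AT1 cells spread into thin sheets that form most of the surface for gas exchange and lie on a basement membrane shared with the capillaries. AT2 cells make surfactant, a film of phospholipid and specific proteins that lowers surface tension, store it in lamellar bodies and also secrete host defence proteins. AT2 cells can divide and give rise to AT1 cells in the adult lung.

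The mice were of a mixed FVB/C57BL6 background, carried Sftpc-CreER, Rosa26-Zsgreen and Hopx-RFP, and received tamoxifen, and this held for both groups. In this design the Sftpc-driven, tamoxifen-dependent Cre switches on a green label, and the red label reports Hopx. The AT1 P60 library held cells sorted as RFP+, Pdpn+, GFP- and CD45-, and the AT2 P60 library held cells sorted as GFP+ and CD45-. Hopx, Pdpn and Sftpc were therefore used by the sort as well as by the cell selection. The digestion differed as well: neutral protease and DNase I served for both libraries, whereas elastase and type I collagenase were added for AT1 cells only. Dead cells were excluded by DAPI. AT1 libraries of younger mice, from P3 and P15, are given side by side where they help (2898 of 3149 and 2670 of 2940 cells kept by the AT1 markers). The numbers of animals per library were not given in the sources used here.

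With 1 library a side there is no replicate check and no test, and cell class, library, sort and digestion cannot be told apart. Levels are counts of unique molecular identifiers (UMIs, each standing for 1 captured RNA molecule) summed over the kept cells and given per 1000000 UMIs of that class (CPM). The kept AT1 cells held 6851433 UMIs (median 5493 UMIs and 2211 genes per cell) and the kept AT2 cells 10123201 (4907 UMIs and 1556 genes). The protocol tags the 3′ end of RNA. Each ratio carries an exact conditional Poisson 95% interval, each share of cells an exact Clopper-Pearson interval, and all intervals cover counting error only. The libraries shared 3 cell barcodes.

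The AT1 threshold lay at 1.90% of a cell's UMIs, with the nearest cells at 2.02% inside and 1.76% outside. The AT2 threshold lay at 9.79%, with the nearest cells at 9.79% inside and 9.78% outside. The 13 marker genes chose the cells, so their levels are a description. In the kept cells the 8 AT1 markers made up 4.04% of AT1 UMIs and 0.224% of AT2 UMIs, and the 5 AT2 markers 0.0322% of AT1 UMIs and 19.9% of AT2 UMIs. Markers that the selection did not use are described below, and with few exceptions they went with the labels too. Their lists were drawn with earlier results of these data known, so this is no independent check of the labels.

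The RNA of the AT2 class was concentrated in few genes. Sftpc, the surfactant protein C gene, alone held 13.7% of AT2 UMIs and 0.0219% of AT1 UMIs. It took 71 genes to reach 50% of the UMIs in AT2 cells and 282 genes in AT1 cells. Thinned to 2000 UMIs per cell, AT2 cells had a median of 823 genes and AT1 cells 1079 (1965 and 1103 cells, with 46 and 117 shallower cells left out). Ribosomal protein genes held 14.1% of AT2 UMIs against 4.64% of AT1 UMIs, and transcripts of the mitochondrial genome 6.20% against 3.03%. Malat1, a nuclear long non-coding RNA, went the other way with 4.06% against 15.8%. In the AT1 library of P15 Malat1 was at 6.65%, and at P3 it was at 4.22%, so AT1 libraries of other ages were closer to AT2 in this share. Of 82 measured ribosomal protein genes, 75 were at least 2-fold higher in AT2 and none lower, with a median log2 ratio of 1.60. The share of ribosomal protein UMIs was 19.96% in the P3 AT1 library and 7.21% in the P15 AT1 library.

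**Figure D1:**
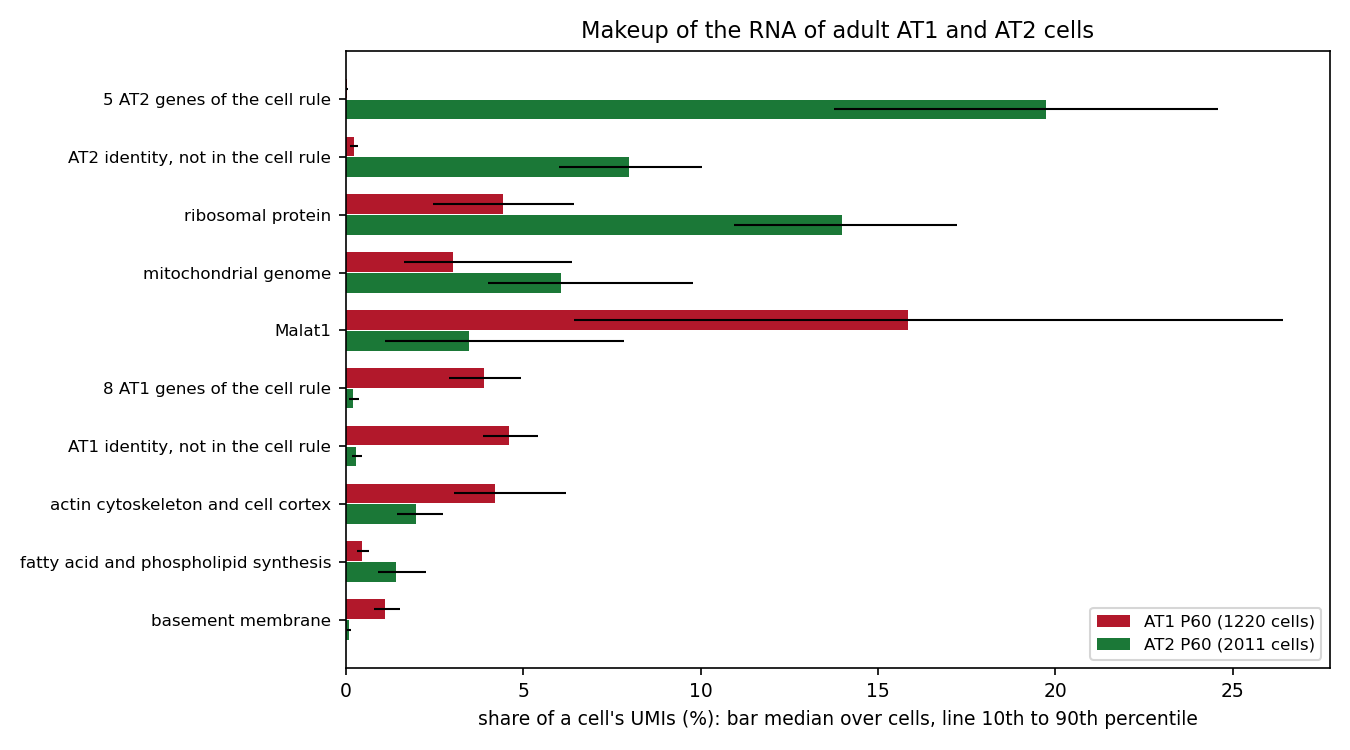
Share of a cell's UMIs (%, horizontal axis) held by 10 gene groups in the 1220 kept AT1 and 2011 kept AT2 cells of P60. Bars show the median over cells and lines the 10th to 90th percentile over cells. The AT2 marker genes and ribosomal protein genes are high in AT2 cells, and Malat1 is high in AT1 cells.

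A ratio of AT2 over AT1 could be formed for 10493 genes, of which 4689 were measured, meaning a mean of at least 25 CPM over the 2 classes, at least 30 UMIs in all and no role in the cell selection. Of these, 508 (10.8%) were at least 2-fold higher in AT2 and 1680 (35.8%) at least 2-fold lower, and 2501 lay within 2-fold. At a 4-fold size the counts were 239 higher (5.1%) and 632 lower (13.5%). At least 100-fold, 51 genes were higher in AT2 and 39 in AT1. The median log2 ratio of all measured genes was -0.66. This split depends on the scaling. With a trimmed mean of log ratios in place of the total, 953 genes were higher and 775 lower, with a median of ratios 943 and 783, and with a total that leaves out the 13 marker genes 684 and 1348. These scalings moved the median of all genes by 0.72, 0.71 and 0.27 on the log2 scale. The gene lists below are therefore read against the median of -0.66, and list members are called higher or lower at 2-fold. Counts of list members stand against the 10.8% higher and 35.8% lower of all measured genes.

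**Figure D2:**
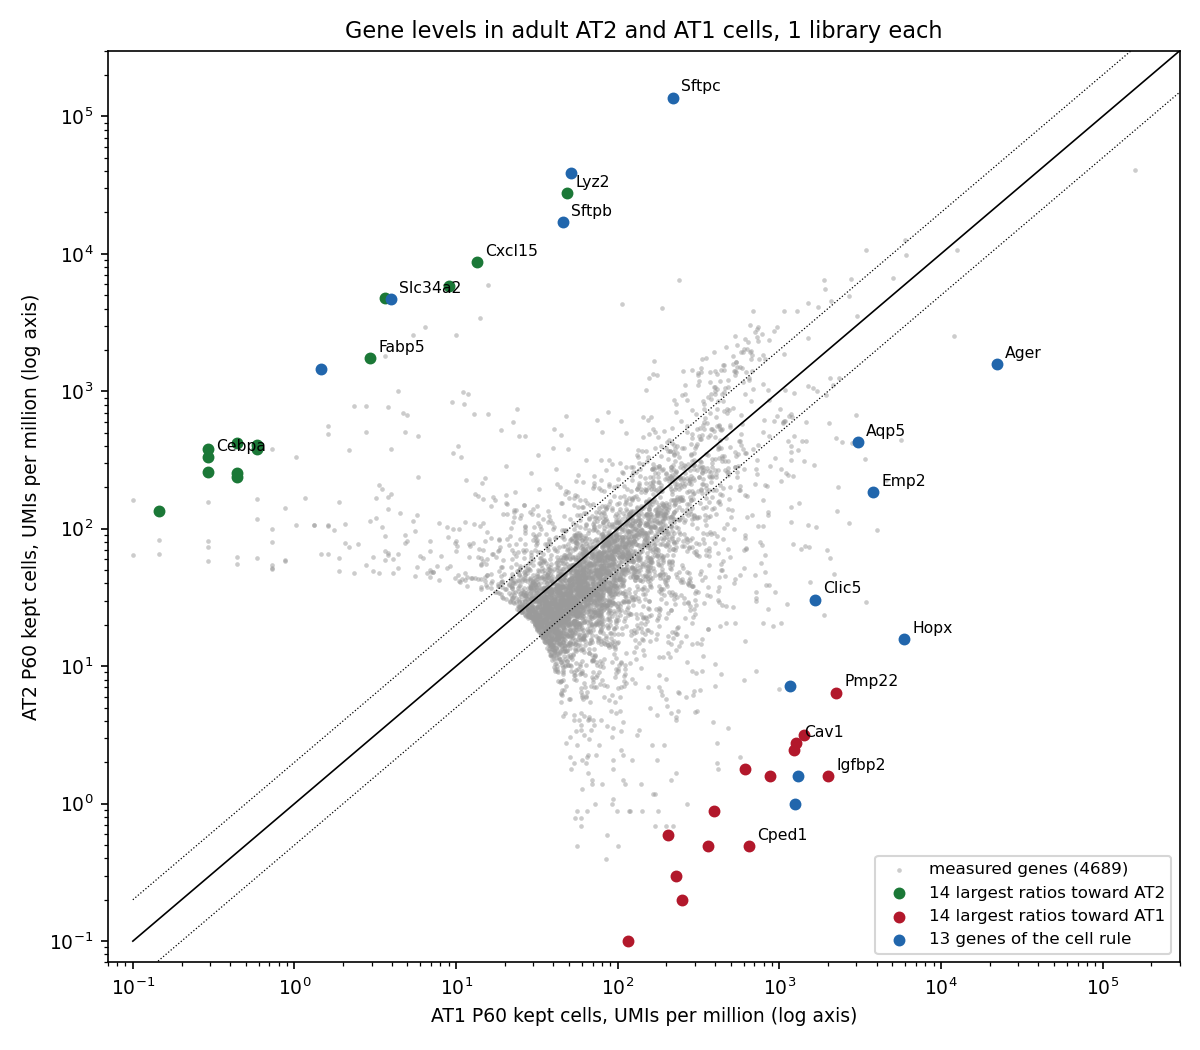
Level in kept AT2 P60 cells (vertical) against kept AT1 P60 cells (horizontal), both in CPM on log axes; each point is a gene, the solid line marks equal levels and the dotted lines 2-fold. The genes with the largest ratios lie up to 1311-fold above and 1316-fold below the line of equal levels, and a class at 0 is drawn at 0.1.

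The 14 largest ratios toward AT2 are given first. Scd1, which encodes a stearoyl-CoA desaturase that makes monounsaturated fatty acids, stood at 4784 CPM in AT2 and 3.65 in AT1, a ratio of 1311 (888 to 2026). In GENCODE M21 on GRCm38, Scd1 is a protein-coding gene at chr19:44394455-44407879 on the minus strand. Sftpd (surfactant protein D, a collectin) stood at 5878 and 9.05 CPM, a ratio of 650 (507 to 847). Lyz2, a lysozyme gene, stood at 27686 and 48.7 CPM, a ratio of 568 (510 to 634), and its close copy Lyz1 at 5922 and 15.8 CPM. Reads of these lysozyme copies may have been split between them in the counting. Cxcl15, a lung chemokine, stood at 8683 and 13.4 CPM, and Fabp5, a fatty acid binding protein, at 1748 and 2.92 CPM. Every one of these genes had far higher counts in the AT2 class, and the AT1 values rest on 334 UMIs or fewer.

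For several genes the AT1 count was so small that the ratio is only loosely bounded. Cebpa, a transcription factor of AT2 maturation, had 2 UMIs in AT1 and 3340 in AT2 (330 CPM), a ratio of 1130 (313 to 9337). Cpm, a membrane carboxypeptidase, had 2 and 3834 UMIs, a ratio of 1297 (359 to 10717). Hc (complement C5) had 3 and 4288 UMIs, Il33 (an alarmin cytokine) 2 and 2626, Egfl6 3 and 2584, Acoxl 3 and 2406, and Aox3 1 and 1368. Their ratios ran from 543 for Acoxl to 967 for Hc. Ppp1r14c and Itih4, an inter-alpha-trypsin inhibitor chain, completed the 14 largest, with 692 and 648.

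These AT2 ratios moved with the choice of cells. With all cells of both libraries summed, the log2 ratio of Scd1 was 7.40 instead of 10.36, that of Cebpa 6.30 instead of 10.14 and that of Lyz2 6.26 instead of 9.15, and over the 14 genes the log2 ratio ran from 5.76 to 7.40. The 117 cells set aside from the AT1 library held Scd1 at 421 CPM, Lyz2 at 5308 CPM and Sftpc at 23549 CPM. Among the AT2 markers, the level in kept AT1 cells was 0.0845% of the AT2 level for Slc34a2, 0.160% for Sftpc and 0.271% for Sftpb, and that of Scd1 was 0.0763%. No expression in AT1 cells was read from a level in this range, and its source was not tested. The median over 39 AT2 identity and marker genes was 0.271%.

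Toward AT1, 12 of the 14 largest ratios follow. Igfbp2, an insulin-like growth factor binding protein, stood at 1993 CPM in AT1 and 1.58 in AT2, a ratio of 1261 (776 to 2207). Igfbp2 lies at chr1:72824503-72852474 on the plus strand, and Cped1 at chr6:21985916-22256404 on the plus strand. Cped1 stood at 650 and 0.494 CPM, a ratio of 1316 (564 to 4056). Sdpr (cavin-2) and Cav1 (caveolin-1), structural proteins of caveolae, stood at 1233 and 2.47 CPM and at 1269 and 2.77 CPM, with ratios of 499 (338 to 772) and 459 (317 to 691). Pmp22, a tetraspan membrane protein, stood at 2254 and 6.42 CPM, a ratio of 351 (275 to 455). Cyp4b1, a cytochrome P450, stood at 1420 and 3.16 CPM, and Ctgf, a matricellular growth factor, at 396 and 0.889 CPM.

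Other large AT1 ratios rested on few AT2 counts. Lims2, an integrin-linked adaptor, had 1561 UMIs in AT1 and 3 in AT2, a ratio of 769 (263 to 3732). Tm4sf1, Pxdc1, Agpat4 and Nbl1 had ratios from 344 to 728. With all cells summed, the log2 ratios of these 12 genes ran from -8.68 to -6.17, against -10.36 to -8.42 in the kept cells.

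The AT1 levels of these genes in the younger libraries were far from uniform. Cped1 stood at 52.7 CPM at P3, 245 at P15 and 650 at P60, Cyp4b1 at 24.9, 573 and 1420, and Tm4sf1 at 8.23, 45.2 and 359. Ctgf stood at 375, 652 and 396 CPM. All 12 genes were higher in each of the 3 AT1 libraries than in AT2 cells. Each age is 1 library, so age and library cannot be told apart. Of the 14 AT2 genes, all were higher in AT2 P60 cells than in any AT1 library, and Sftpd reached 101 CPM and 89.4 CPM at P3 and P15 against 9.05 CPM at P60.

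**Figure D3:**
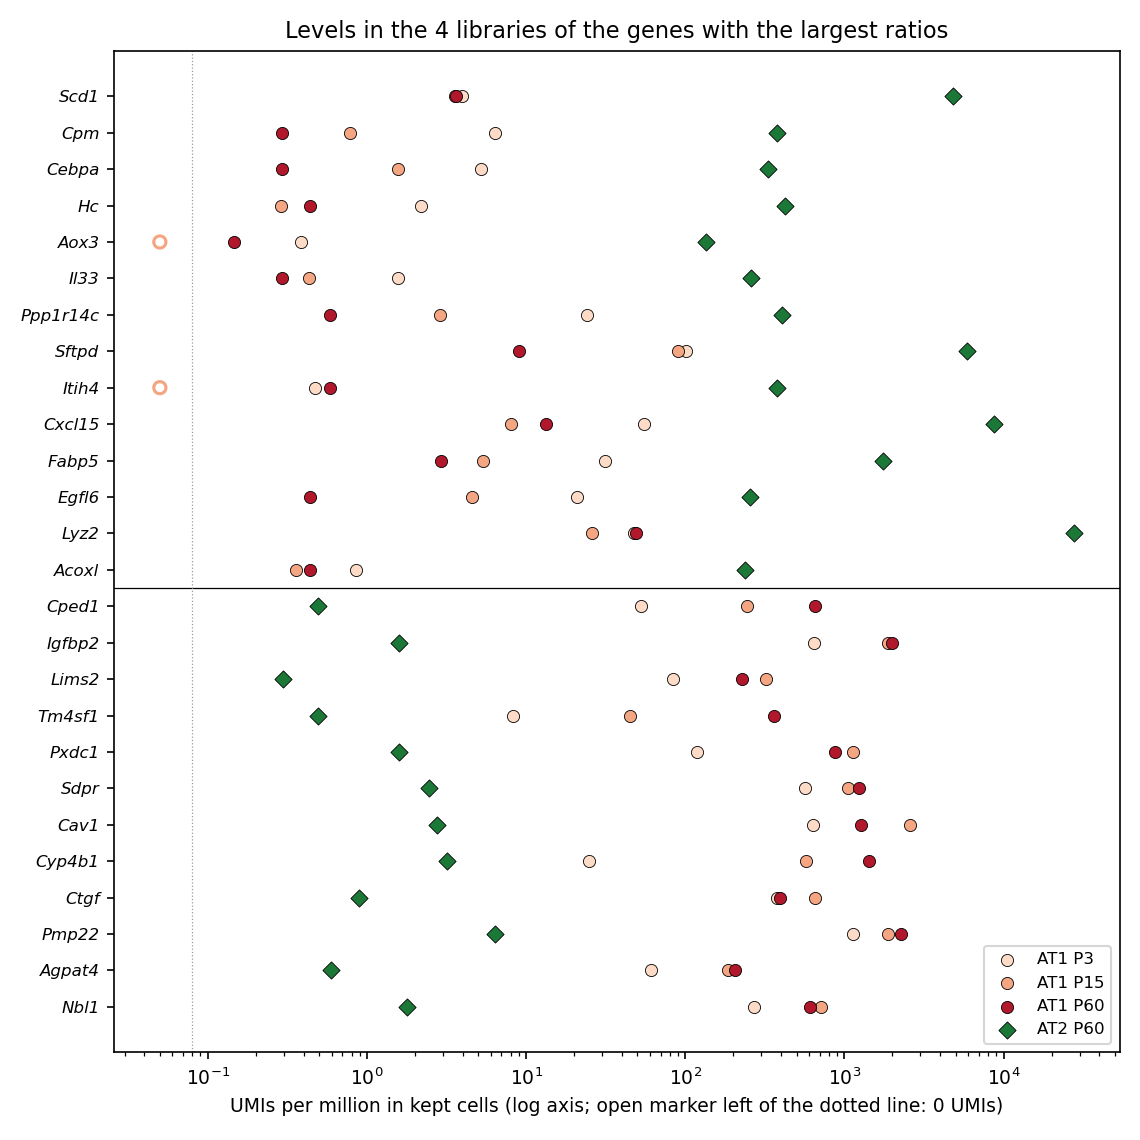
Level in CPM (log axis) in the kept cells of the AT1 P3, P15 and P60 libraries (circles) and the AT2 P60 library (diamonds) for the 14 genes with the largest ratio toward AT2 (top) and 12 of the 14 toward AT1 (bottom). An open marker left of the dotted line is a count of 0. The AT2 diamonds lie to the right of every circle in the top group and to the left in the bottom group.

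Genes of surfactant processing were on both sides, with more on the AT2 side. On the list for surfactant processing and lamellar bodies, 11 of 20 measured genes were higher in AT2 and 3 lower, with a median log2 ratio of 1.47 against -0.66 over all measured genes. The median was 0.12 when all 27 genes with a ratio were taken without the CPM minimum. Sfta2, a surfactant-associated protein, stood at 2575 CPM in AT2 and 5.40 in AT1, and Napsa, a protease of surfactant protein B processing, at 2562 and 9.92 CPM. Abca3, the lipid transporter of lamellar bodies, stood at 704 and 87.4 CPM, a log2 ratio of 3.01. Lpcat1, which makes the main surfactant phospholipid, stood at 1339 and 165 CPM, and Ctsh, a cathepsin of surfactant protein processing, at 1026 and 150 CPM. Prdx6, a peroxiredoxin with phospholipase activity, went the other way at 444 CPM in AT2 and 5692 in AT1, a ratio of 12.8 (12.4 to 13.2) toward AT1. Vamp8 and Bloc1s1 lay within 2-fold.

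Promoter windows of a pair of AT2 marker genes are shown because they hold letter strings known as the core motifs of lung transcription factors. RefSeq promoter windows (GRCm38.p6, 250 bases before to 50 after the start, read along the gene's strand) were searched on both strands for CTCAAG (NKX2-1), GGAATG (TEAD), TTGCNNAA (C/EBP), TCACNCCA (SREBP) and TGTTTAC (FOXA). None of these letter strings overlap each other in the windows printed. Sftpb (chr6:72304360-72304659, plus strand) held CTCAAG at 100 and 15 bases before its start. Slc34a2 encodes the sodium phosphate cotransporter of AT2 cells. Its window (chr5:53049103-53049402, plus strand) held GGAATG at 92 and a TTGCNNAA match at 48 bases before the RefSeq start used. That start lies inside the GENCODE M21 span of the gene (chr5:53038081-53071664) and not at its first base. The matches are in capitals.

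Sftpb: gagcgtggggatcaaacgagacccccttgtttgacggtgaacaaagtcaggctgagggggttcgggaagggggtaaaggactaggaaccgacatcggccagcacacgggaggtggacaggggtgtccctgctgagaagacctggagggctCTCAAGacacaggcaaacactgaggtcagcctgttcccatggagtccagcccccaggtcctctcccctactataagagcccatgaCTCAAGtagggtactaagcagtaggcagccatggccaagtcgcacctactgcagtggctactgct

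Slc34a2: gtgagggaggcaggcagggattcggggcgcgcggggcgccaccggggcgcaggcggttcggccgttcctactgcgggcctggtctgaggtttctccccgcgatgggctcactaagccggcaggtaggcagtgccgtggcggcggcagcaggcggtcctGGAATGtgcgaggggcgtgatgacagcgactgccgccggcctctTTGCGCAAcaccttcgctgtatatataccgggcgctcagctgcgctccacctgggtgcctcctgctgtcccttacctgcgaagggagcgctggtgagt

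These strings are common. CTCAAG was in 15.9% of all 32851 windows, GGAATG in 14.7%, TTGCNNAA in 10.8%, TCACNCCA in 4.36% and TGTTTAC in 3.65%. A match is a description of letters and not of a bound site. The windows covered 185 of the 239 genes at least 4-fold higher in AT2 (77.4%) and 486 of the 632 at least 4-fold lower (76.9%), under the 80% needed, so a comparison of motif shares between these sets is void and is not given. Of the 209 named genes, 163 had a window.

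Fatty acid and sterol synthesis leaned toward AT2. On the fatty acid and phospholipid list 17 of 31 measured genes were higher and 5 lower, with a median log2 ratio of 1.35. The median was 1.13 without the CPM minimum and 3.33 with a mean of 100 CPM required. Here and below, the 100 CPM minimum was applied to list medians after the data were seen. Fasn (fatty acid synthase) stood at 524 CPM in AT2 and 18.97 in AT1, Acly (which makes cytosolic acetyl-CoA) at 344 and 32.1, and Elovl1, a fatty acid elongase, at 1669 and 167. Cd36, a fatty acid translocase, stood at 837 and 9.49 CPM, a ratio of 88.2 (69.2 to 114), and Pla2g1b, a secreted phospholipase, at 692 and 4.67 CPM. Srebf1, which encodes the transcription factor SREBP1, stood at 77.2 and 26.6 CPM. The desaturase genes divided, since Scd2 stood at 588 CPM in AT2 and 2024 in AT1, a log2 ratio of -1.78, opposite to Scd1. Chpt1, a choline phosphotransferase, was also lower in AT2 (65.4 against 307 CPM).

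On the cholesterol list 17 of 24 measured genes were higher in AT2 and 2 lower, with a median log2 ratio of 1.72. Most enzymes of the pathway were at modest levels. Idi1 stood at 140 CPM in AT2 and 3.79 in AT1, Fdps at 196 and 32.5, Hmgcs1 at 124 and 37.8 and Sqle at 49.5 and 1.90. Insig1, a sterol-responsive brake on SREBP, stood at 171 and 16.9 CPM. Npc2, a lysosomal sterol carrier that is also secreted, stood at 6498 and 240 CPM, a ratio of 27.0 (25.7 to 28.4). The exceptions were Abca1, a cholesterol exporter, at 8.10 CPM in AT2 and 199 in AT1, and Ebp, a sterol isomerase, at 37.5 and 89.5 CPM. Abca1 stood at 31.6 CPM in the P3 and 191 in the P15 AT1 library.

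Defence genes were higher in AT2 wherever they were measured. All 12 measured genes of the innate defence list were at least 2-fold higher, with a median log2 ratio of 8.75, and besides Lyz2, Lyz1, Sftpd, Cxcl15, Hc and Il33 they included Lcn2 (an iron-chelator binding lipocalin, 999 against 4.38 CPM), Chil1 (a chitinase-like protein, 1806 against 3.65), Slpi (a protease inhibitor, 171 against 3.79) and Wfdc2 (4010 against 187). Of the 18 members with a ratio, taken without the CPM minimum, the median was 6.66.

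Antigen presentation split by class. All 6 measured MHC class II genes, which present extracellular peptides, were higher in AT2, with a median log2 ratio of 5.32. Cd74, the invariant chain, stood at 4347 CPM in AT2 and 106 in AT1, a ratio of 40.9 (37.97 to 44.0), and H2-Aa at 994 and 11.1 CPM, a ratio of 89.6 (71.5 to 114). After thinning, 99.03% of AT2 cells had a Cd74 UMI and 79.1% an H2-Aa UMI, against 13.4% and 1.54% of AT1 cells (unthinned 99.8, 92.5, 33.6 and 4.18%). With all cells summed the log2 ratio of H2-Aa was 3.72 instead of 6.49, and the AT1 cells set aside held Cd74 at 4122 CPM. MHC class I and antigen processing genes stayed close together. Of 13 measured, 1 (7.7%) was higher and 3 (23.1%) lower, against 10.8% and 35.8% of all measured genes. Their median log2 ratio was -0.08 and became 0.59 with the trimmed mean. B2m, the class I light chain, stood at 373 CPM in AT2 and 1308 in AT1. H2-K1 (487 and 288 CPM) and H2-D1 (407 and 576 CPM) were within 2-fold, and H2 genes are near copies whose reads the counting may have split. The immune cell markers summed to 90.4 CPM in kept AT2 cells and 71.1 in kept AT1 cells, and the largest was Lcp1 at 80.9 CPM in AT2. Ptprc, which encodes the CD45 used to exclude immune cells in the sort, stood at 0.296 and 2.19 CPM.

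**Figure D4:**
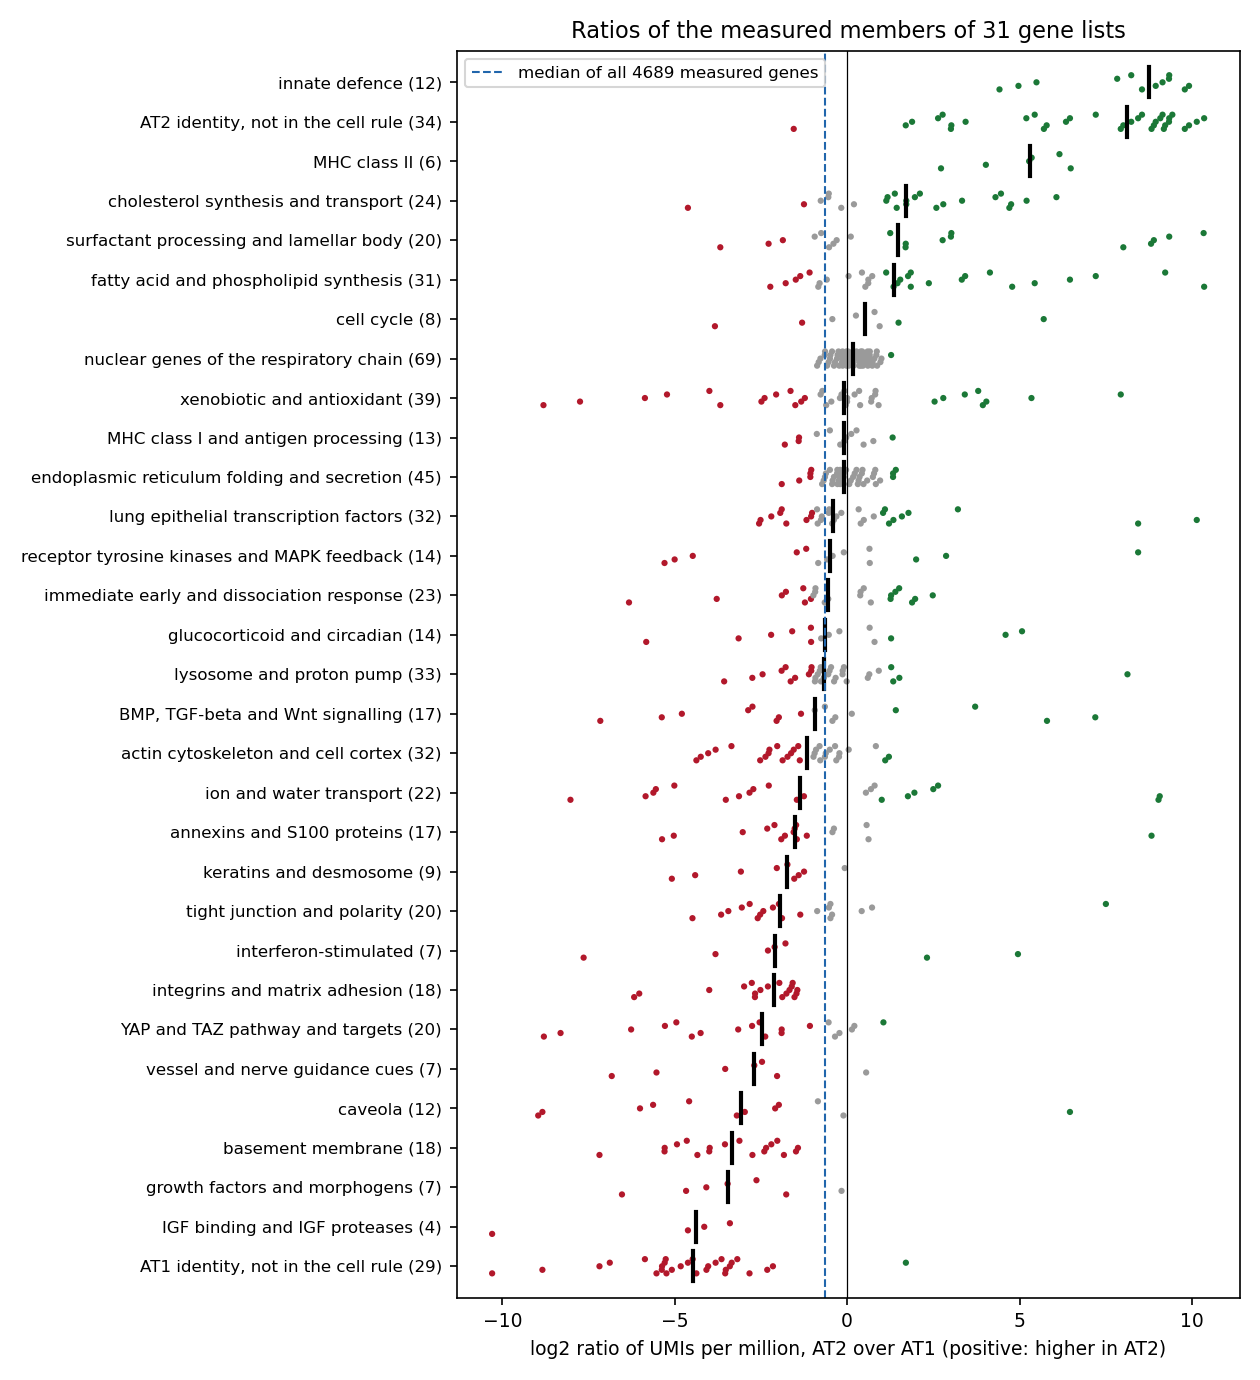
Each point is the log2 ratio of CPM (AT2 over AT1, horizontal axis) of a measured member of 1 of 31 gene lists, green at 2-fold or more toward AT2, red at 2-fold or more toward AT1 and grey between. Black ticks are list medians, the number measured stands after each name and the dashed line is the median of all 4689 measured genes at -0.66. Innate defence and AT2 identity have the highest medians, and AT1 identity and IGF binding the lowest.

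Genes of the basement membrane and of adhesion to it were higher in AT1 wherever they were measured. All 18 measured basement membrane genes and all 18 measured integrin and matrix adhesion genes were at least 2-fold lower in AT2, with median log2 ratios of -3.34 and -2.13, and the medians were -2.67 and -1.46 with the trimmed mean. The smallest differences, at -1.43 and -1.45, lie within 2-fold under that scaling. Without a ratio, Col18a1 of the basement membrane list was listed only in the AT2 library (5.43 CPM), and 4 members were at 0 in it. The type IV collagen chains Col4a3 and Col4a4, the pair typical of thin alveolar basement membrane, stood at 993 and 1112 CPM in AT1 and at 6.82 and 28.4 in AT2, ratios of 146 (115 to 187) and 39.2 (34.9 to 44.3). Sparc, a matricellular collagen chaperone, stood at 4567 and 225 CPM, Timp3, a metalloproteinase inhibitor, at 3449 and 29.1, Hspg2 (perlecan) at 445 and 27.8 and Lama3, a laminin chain, at 202 and 5.14. Col4a1 and Col4a2, the broadly expressed chains, stood at 524 and 603 CPM in AT1 and 98.9 and 51.7 in AT2. Among the receptors, Itgb6 stood at 310 and 4.74 CPM, a ratio of 65.4 (49.2 to 89.0), Itga3, the laminin receptor chain, at 266 and 16.6, and Itgb1, the shared partner chain, at 371 and 94.9.

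Caveola genes were mostly AT1 genes, with 9 of 12 measured lower in AT2, 1 higher and a median log2 ratio of -3.09, or -5.63 with a mean of 100 CPM required. Besides Sdpr and Cav1, Cav2 stood at 1018 CPM in AT1 and 20.5 in AT2, Ehd2 at 721 and 30.03, Ptrf (cavin-1) at 433 and 55.2, and Prkcdbp (cavin-3) at 299 and 4.64. The member on the AT2 side was Cd36, which is also on the fatty acid list.

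The cytoskeleton divided by gene. Of 32 measured actin and cortex genes 16 (50%) were lower in AT2, against 35.8% of all measured genes, 2 were higher and 14 within 2-fold. The median log2 ratio was -1.18, or -0.51 with the trimmed mean. Limch1, an actomyosin regulator, stood at 1524 CPM in AT1 and 73.5 in AT2, Msn (moesin, a membrane to actin linker) at 1361 and 71.6, Ahnak at 1692 and 103, and Actb (beta-actin) at 12037 and 2522. Tmsb4x, an actin monomer binder, lay within 2-fold at 12621 and 10707 CPM, and Ezr (ezrin, the apical relative of moesin) at 179 and 184. The exceptions were Arpc1b (81.7 CPM in AT1 and 189 in AT2) and Pdlim1 (58.2 and 125). Of 9 measured keratin and desmosome genes 8 were lower in AT2, led by Krt7 (2068 and 60.9 CPM) and Krt19 (825 and 38.8), with Krt8 at 501 and 122. Of 17 measured annexins and S100 proteins 12 were lower, with S100a6 at 4043 and 97.7 CPM, Anxa1 at 846 and 25.9 and Anxa5 at 1185 and 145, and 1 was higher, the calcium-binding S100g at 6.42 and 2923 CPM.

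Junction genes also leaned toward AT1, with 12 of 20 measured lower in AT2, 1 higher and a median log2 ratio of -1.94. Pard6b, a polarity protein, stood at 326 CPM in AT1 and 14.5 in AT2, Ocln (occludin) at 143 and 13.1, Tjp1 (ZO-1) at 209 and 34.6 and Cgn (cingulin) at 215 and 25.8. The claudins differed among themselves. Cldn18, the main alveolar claudin, stood at 2969 and 667 CPM, Cldn7 at 188 and 134, and Cldn3 at 2.77 CPM in AT1 and 504 in AT2, a ratio of 182 (116 to 302) toward AT2. Cldn3 stood at 611 CPM in the P3 AT1 library and 29.6 in the P15 library. Cdh1 (E-cadherin) lay within 2-fold at 368 and 262 CPM.

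Targets of the mechanosensitive coactivators YAP and TAZ, which act through TEAD factors and respond to cell stretch and spreading, were higher in AT1. Of 20 measured genes of the pathway and its targets 14 were lower in AT2 and 1 higher, with a median log2 ratio of -2.46. The median was -1.90 without the CPM minimum and -4.51 with a mean of 100 CPM required. Ctgf had a ratio of 445 (234 to 975), Ankrd1 stood at 220 CPM in AT1 and 0.691 in AT2, a ratio of 319 (154 to 794), and Cyr61 at 715 and 9.29 CPM, a ratio of 77.1 (62.8 to 95.5). Ankrd1 stood at 11.4 CPM at P3 and 65.8 at P15, while Cyr61 stood at 926 and 988. Among the pathway's own proteins, Tead1 stood at 470 and 20.6 CPM, Lats2, an inhibitory kinase, at 112 and 12.5, Wwtr1 (TAZ) at 59.8 and 16.003, and Yap1 at 24.5 and 27.0. Yap1 and Vgll4 (39.4 and 45.5 CPM) lay within 2-fold, and Mob1b was the member on the AT2 side (41.7 and 86.5).

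The windows of Ankrd1 (chr19:36119795-36120094, minus strand) and Cyr61 (chr3:145649936-145650235, minus strand) are shown because both are textbook targets of this pathway. Ankrd1 held GGAATG at 210 and at 123 bases before its start. Cyr61 held its reverse complement CATTCC at 103 bases before its start. Slc34a2, high in AT2, held the same string, as printed above.

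Ankrd1: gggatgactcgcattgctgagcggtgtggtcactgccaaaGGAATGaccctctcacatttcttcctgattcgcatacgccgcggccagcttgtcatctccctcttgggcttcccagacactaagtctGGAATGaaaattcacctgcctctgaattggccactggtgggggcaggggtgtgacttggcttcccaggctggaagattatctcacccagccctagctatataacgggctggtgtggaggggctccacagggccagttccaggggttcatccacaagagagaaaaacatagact

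Cyr61: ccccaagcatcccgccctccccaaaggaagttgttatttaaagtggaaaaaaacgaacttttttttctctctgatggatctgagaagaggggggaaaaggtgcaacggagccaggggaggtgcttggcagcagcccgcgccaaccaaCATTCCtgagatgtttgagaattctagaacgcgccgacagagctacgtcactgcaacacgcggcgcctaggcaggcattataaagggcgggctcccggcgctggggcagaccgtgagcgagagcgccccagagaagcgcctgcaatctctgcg

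Measured transcripts of secreted signals were mostly higher in AT1. Vegfa, the vascular endothelial growth factor, stood at 2172 CPM in AT1 and 46.9 in AT2, a ratio of 46.3 (42.2 to 50.8), and had a UMI in 97.0% of thinned AT1 cells and 9.41% of thinned AT2 cells (unthinned 98.6 and 20.9%). Of 7 measured vessel and nerve guidance cues 6 were lower in AT2, among them the semaphorins Sema3f (56.2 and 0.494 CPM) and Sema3b (259 and 22.3) and the ephrin Efna1 (214 and 33.0), while Vegfb lay within 2-fold (24.1 and 35.3). Of 7 measured growth factors and morphogens 6 were lower, among them Pdgfa (817 and 48.1 CPM) and Pdgfb (179 and 7.01), mitogens of mesenchymal cells, Hbegf (306 and 27.7), an EGF receptor ligand, Wnt3a (91.5 and 0.988) and Fgf1 (252 and 40.7). Bmp4 lay within 2-fold at 128 and 115 CPM. On this list 6 members had no ratio because only the AT2 library listed them, at up to 12.4 CPM (Bmp2). Another 5 were at 0 in AT2, at up to 164 CPM in AT1 (Tgfb2). The medians were -2.69 and -3.47. All 4 measured genes of IGF binding and IGF proteases were lower in AT2, namely Igfbp2, Igfbp6 (2686 and 109 CPM), Htra1 (231 and 13.04) and Igfbp7 (3397 and 321). Igfbp6 stood at 108 CPM at P3 and 292 at P15.

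Receptors and feedback genes did not share a direction. Of 14 measured receptor tyrosine kinase and MAPK feedback genes 3 (21.4%) were higher in AT2 and 5 (35.7%) lower, against 10.8% and 35.8% of all measured genes. Their median log2 ratio was -0.50, or 0.41 with the trimmed mean. It was -0.09 without the CPM minimum and 2.00 with a mean of 100 CPM required. Fgfr2, the receptor of epithelial FGF signals, stood at 221 CPM in AT2 and 55.2 in AT1, and Etv5, an ETS factor downstream of FGF signalling, at 558 and 1.61, a ratio of 348 (194 to 697). Igf1r stood at 4.45 and 175 CPM, Egfr at 2.96 and 66.1, and Ddr1, a collagen receptor, at 4.94 and 159. The feedback inhibitors Spry1 (98.7 and 132 CPM) and Spry2 (112 and 71.2) were within 2-fold. On the BMP, TGF-beta and Wnt list 4 of 17 measured genes (23.5%) were higher in AT2 and 8 (47.1%) lower, with a median of -0.94. Over all measured genes 10.8% were higher and 35.8% lower. Bambi, a decoy BMP receptor, had 651 UMIs in AT2 (64.3 CPM) and 0 in kept AT1 cells, and was at least 147-fold higher in AT2 against a floor of 3 counts over the class. Nkd1, a Wnt antagonist and target, stood at 97.4 CPM in AT2 and 1.75 in AT1, and Id2, an inhibitor of bHLH factors, at 530 and 40.4. Id3, of the same family, went the other way at 1.48 and 212 CPM, as did Fzd2 (6.62 and 184) and Tgfbr2 (33.0 and 222).

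Ion transport genes were divided between the classes. The epithelial sodium channel subunits, which draw fluid out of the airspace, were all lower in AT2. Scnn1a stood at 615 CPM in AT1 and 86.2 in AT2, Scnn1b at 433 and 8.79 and Scnn1g at 567 and 2.17, with ratios for the last pair of 49.3 (39.9 to 61.5) and 261 (172 to 417). Atp1b1, the beta subunit of the sodium pump, stood at 223 CPM in AT1 and 863 in AT2, a log2 ratio of 1.95. Kcnj15, a potassium channel, had 2 UMIs in AT1 and 1586 in AT2, a ratio of 537 (148 to 4436), and Car8 stood at 0.730 and 382 CPM. Ano1, a calcium-activated chloride channel, was an AT1 gene at 292 and 6.22 CPM. On the whole list 7 of 22 measured genes (31.8%) were higher in AT2 and 12 (54.5%) lower, against 10.8% and 35.8% of all measured genes. The list median was -1.36, or -0.68 without the CPM minimum.

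Transcription factors of the lung epithelium were found on both sides. Of 32 measured, 9 (28.1%) were higher in AT2, 9 (28.1%) lower and 14 within 2-fold, against 10.8% higher and 35.8% lower of all measured genes. Their median log2 ratio was -0.41 and became 0.26 with the trimmed mean. Nkx2-1, the lung lineage factor, stood at 425 CPM in AT1 and 325 in AT2, Foxa1 at 42.0 and 52.9 and Foxa2 at 130 and 90.8, all within 2-fold. On the AT2 side, after Cebpa and Etv5, were Rbpjl (162 CPM in AT2 and 17.5 in AT1), Foxp1 (216 and 71.8), Nfix (153 and 44.7) and Irx1 (204 and 88.0). On the AT1 side were Klf6 (88.9 and 409), Klf2 (16.003 and 91.4), Klf7 (9.38 and 55.2), Gata6 (48.8 and 187) and Nr3c1, the glucocorticoid receptor (49.2 and 167). Gata6 had a ratio of 3.84 (3.46 to 4.27).

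Genes of the respiratory chain and of protein folding mostly lay within 2-fold. Of 69 measured nuclear genes of the respiratory chain 1 was higher in AT2 (Atp5e, 961 and 397 CPM), none was lower and 68 were within 2-fold. Their median log2 ratio was 0.17, against -0.66 over all measured genes, and ran from 0.12 to 0.84 under the other settings. Of 45 measured genes of endoplasmic reticulum folding and secretion 3 were higher, 5 lower and 37 within 2-fold, with a median of -0.10 that becomes 0.57 with the trimmed mean, and the chaperone Hspa5 (BiP) stood at 381 and 415 CPM. Among other housekeeping genes, the lysosome and proton pump list had 4 of 33 higher (12.1%) and 10 lower (30.3%), near the 10.8% and 35.8% of all measured genes. Its median of -0.68 was close to that of all genes. Ctsc, a cathepsin, stood at 778 CPM in AT2 and 2.77 in AT1, and Psap, the saposin precursor, at 35.4 and 420. The mitochondrial genome had 7 of 13 genes higher, with a median of 1.07.

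Enzymes that handle foreign compounds and oxidants were found on both sides. Of 39 measured, 8 were higher in AT2 and 13 lower (33.3%, close to the 35.8% of all measured genes), with a median log2 ratio of -0.08 that becomes 0.62 with the trimmed mean. Cyp2b10, a cytochrome P450, stood at 1725 CPM in AT1 and 29.5 in AT2, and Gsto1 at 241 and 6.42. Cbr2, a carbonyl reductase, stood at 14.01 CPM in AT1 and 3435 in AT2, a ratio of 245 (201 to 303), Mgst1, a membrane glutathione transferase, at 47.6 and 663, and Cat (catalase) at 105 and 607. Cyp2b10 stood at 15.4 CPM in the P3 AT1 library and 1157 at P15. Aldh1a1, also a club cell marker, stood at 85.1 CPM in AT1 and 0.395 in AT2.

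Dissociation can induce stress genes, and the digestion differed between the libraries. Its part in the values below was not tested. Of 23 measured immediate early and dissociation response genes 7 (30.4%) were higher in AT2 and 7 (30.4%) lower, against 10.8% and 35.8% of all measured genes. Their median log2 ratio was -0.55 and became 0.58 with the trimmed mean. Fosb (148 CPM in AT2 and 26.4 in AT1), Fos (258 and 107) and Egr1 (98.0 and 26.6) were higher in AT2, and Ier3 (23.4 and 1883) and Gadd45b (30.4 and 419) higher in AT1. In the AT1 libraries Jun stood at 1605 CPM at P3, 411 at P15 and 168 at P60, against 270 in AT2. Of 14 measured glucocorticoid and circadian genes 3 (21.4%) were higher in AT2 and 6 (42.9%) lower, against 10.8% and 35.8% of all measured genes. The median was -0.64, or 0.02 with the trimmed mean. It was -0.38 without the CPM minimum and -2.21 with a mean of 100 CPM required. Sgk1, a glucocorticoid-induced kinase, stood at 4.05 CPM in AT2 and 230 in AT1, and at 72.2 at P3 and 808 at P15, and Bhlhe40 and Dbp, of the clock output, stood at 73.7 and 2.19 CPM and at 88.2 and 3.65 CPM. Collection times of day were not given in the sources used here.

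Of 7 measured interferon-stimulated genes 5 were lower in AT2 and 2 higher, with a median of -2.11. Ifit3 stood at 0.889 CPM in AT2 and 178 in AT1, and at 49.7 at P3 and 542 at P15, while Ly6e stood at 738 CPM in AT2 and 23.8 in AT1. The median was 1.58 when a mean of 100 CPM was required, a minimum applied to lists after the data were seen. Of 8 measured cell cycle genes 2 (25%) were higher in AT2 and 2 (25%) lower. The D-type cyclins were divided, with Ccnd1 at 167 CPM in AT2 and 3.21 in AT1, a ratio of 52.1 (34.3 to 83.3), and Ccnd2 at 29.5 and 422. The list median was 0.52, and -2.13 with a mean of 100 CPM required.

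Known identity markers that the cell selection did not use followed their class with few exceptions. Of 29 measured AT1 identity genes 28 were lower in AT2, with a median log2 ratio of -4.48, and of 34 measured AT2 identity genes 33 were higher, with a median of 8.13. The exceptions were Prnp, the prion protein, at 536 CPM in AT2 and 165 in AT1, and Rgcc, a cell cycle regulator, at 402 and 1178. Rgcc stood at 999 CPM at P3 and 4228 at P15 in AT1, and its log2 ratio of -1.55 became -0.88 with the trimmed mean. These lists were drawn with earlier results of these data known.

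The level of a gene in the class to which it does not belong was uneven on the AT1 side. Over 37 AT1 identity and marker genes, the AT2 level ran from 0.0789% of the AT1 level to 326% (Prnp), with a median of 4.07%, and over 39 AT2 genes the AT1 level ran from 0.0763% to 293% (Rgcc), with a median of 0.271%. Among the 8 AT1 markers, Rtkn2 stood in AT2 at 0.0789% of its AT1 level, Pdpn at 0.121%, Hopx at 0.264%, Akap5 at 0.622%, Clic5 at 1.83%, Emp2 at 4.85% and Ager at 7.06%, and Aqp5 stood at 427 CPM in AT2 and 3048 in AT1. Ager, a pattern recognition receptor and a common AT1 marker, stood at 1568 CPM in AT2 and 22202 in AT1. An Ager UMI was in 90.1% of thinned AT2 cells (88.7 to 91.4) and a Hopx UMI in 3.26% (2.52 to 4.14), at unthinned shares of 98.1% and 6.76%. The 2 genes were thus not at the same ratio to each other in AT2 cells as in AT1 cells. Aqp5, a water channel, had a UMI in 52.3% of thinned AT2 cells (80.8% unthinned). In the other direction a Sftpc UMI was in 36.0% of thinned AT1 cells (63.7% unthinned) at 219 CPM.

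**Figure D5:**
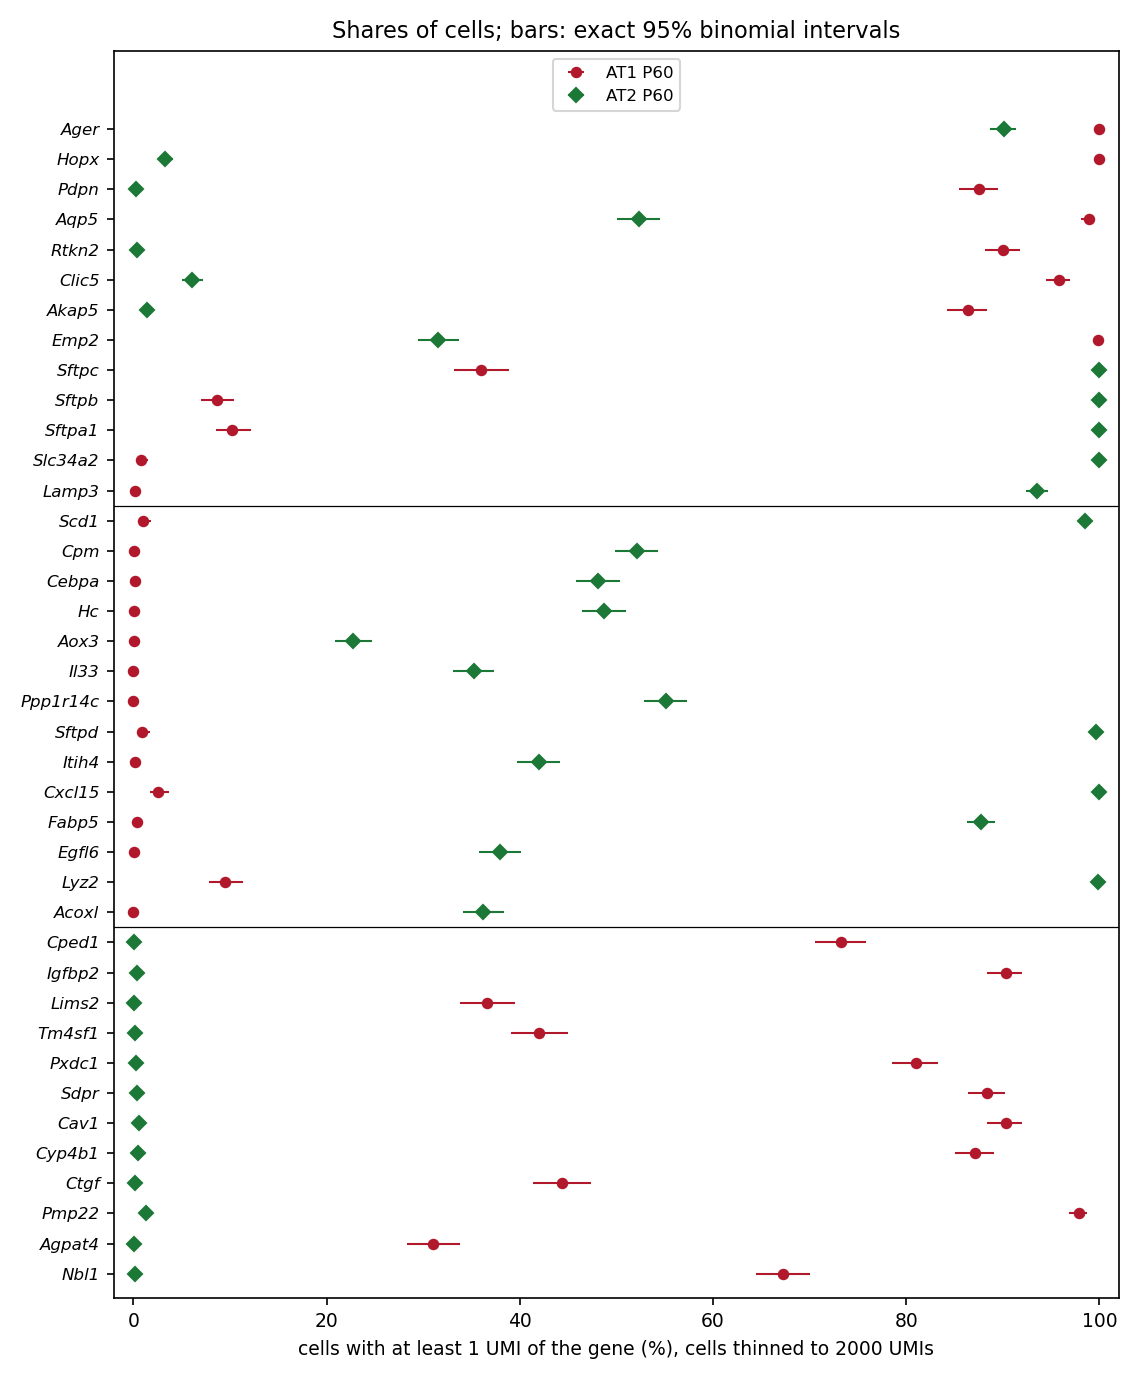
Share of cells (%) with at least 1 UMI of a gene after thinning to 2000 UMIs, in 1103 AT1 cells (red circles) and 1965 AT2 cells (green diamonds) of P60, with exact 95% binomial intervals. The top block holds the 13 marker genes of the cell selection, the middle block the 14 largest ratios toward AT2 and the bottom block 12 of the 14 toward AT1. Ager, Aqp5 and Emp2 are found in many AT2 cells, at 90.1, 52.3 and 31.6%.

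Some genes could be given no ratio. The AT2 library listed 948 genes that the AT1 P60 library did not list, and 1068 genes of the AT1 library were listed at 0 in every AT2 cell. Of the first kind, high levels in AT2 were those of Nrn1 (252 CPM), Lrp2 (235, an endocytic receptor), Mlc1 (181), Tspan11 (176), Anpep (149), Prrg3 (138) and Adam19 (131). Met, the hepatocyte growth factor receptor, at 94.0 CPM, and Cftr, the chloride channel, at 47.0 CPM were in the same position. Of the second kind, the highest in AT1 were Spock2 (800 CPM, a matrix proteoglycan), Sema3e (477), Bdnf (376, a neurotrophin), Akap2 (322), Sema3a (282), Gpm6a (272), Nt5e (260) and Plod2 (249). Myrf, a transcription factor at 102 CPM in AT1, Tgfb2 (164 CPM) and Wnt7a (97.2 CPM) were also listed at 0 in AT2. No fold is given for either kind.

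Markers of other cell types were present in the kept cells, at levels that differed widely between the lists. Scgb1a1, the club cell secretoglobin, stood at 1069 CPM in AT1 and 1871 in AT2, and the 10 club markers summed to 1244 and 2879 CPM, of which Hp (11.8 and 960 CPM) was the main AT2 part after Scgb1a1. Endothelial markers summed to 61.4 CPM in AT1 and 19.3 in AT2, with 7 of 11 listed at 0 in AT2. Pericyte and smooth muscle markers summed to 10.8 and 0.494 CPM, with 4 of 5 listed at 0 in AT2. Of the fibroblast and mesothelial markers, 4 of 9 and 4 of 5 listed were at 0 in AT2. No listed marker of these types was at 0 in kept AT1 cells, so the sums of the classes rest on different numbers of markers. Neutrophil markers summed to 95.2 and 41.8 CPM, and lymphocyte markers to 15.9 and 30.3. The ciliated, fibroblast, mesothelial and macrophage sums in AT1 (2760, 664, 1153 and 227 CPM) were led by Sec14l3, Npnt, Krt19 and Csf1r, and Csf1r stood at 198 CPM in AT1 and 0.691 in AT2. Club markers summed to 1920 and 32736 CPM in the cells set aside from the AT1 and AT2 libraries, the latter the largest sum of any list there. Endothelial markers summed there to 3983 and 331 CPM and neutrophil markers to 5858 and 4171 CPM. The cells set aside held more of each of these than the kept cells. In the AT1 library they held less than the kept cells of the ciliated (638 CPM) and mesothelial (567 CPM) markers. Of the kept cells, 429 of AT1 (35.2%) and 350 of AT2 (17.4%) had 3 or more markers of any 1 such list. The club list was reached in 234 AT1 and 332 AT2 cells, and the mesothelial list in 196 AT1 cells. Some of these markers are also on lists that were higher in AT1: Sec14l3 (AT1 identity), Npnt (basement membrane) and Krt19 (keratins). Gpm6a, a mesothelial marker, stood at 272 CPM in AT1 and at 0 in AT2. The AT1 share was therefore not read as a share of cells of other types. These overlaps do not cover the club markers, and the source of the club markers was not tested. Leaving out the cells with 3 or more markers of any 1 list was among the 9 settings under which the ratios of named genes were recomputed, as described in the last section. Without these cells 523 measured genes were higher in AT2 and 1651 lower, against 508 and 1680 with them.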

How the data were processed

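Values in the deposited files are on a natural log scale, and unlogged they sum to 10000 in each cell over the genes listed. Cell Ranger 1.3.1, Seurat 2.0.0 and the builds mm10 and hg19 are named per the submitters' processing notes, without their roles. The values were unlogged and divided by each cell's smallest value above 0, which gave whole UMIs for 100% of values within 0.05. Sums over kept cells gave the CPM, from 6851433 UMIs in AT1 and 10123201 in AT2. Genes needed a mean of 25 CPM and 30 UMIs in all, and ratios against a count of 0 used 3 counts in its place. Apart from the Poisson intervals on the recovered UMIs, no count model was fitted. The deposited values are logarithms, so the trimmed mean of log ratios, planned with a count package, was computed directly on the recovered UMIs. This used NumPy 2.4.6 with SciPy 1.17.1 and pandas 2.3.3 in Python 3.11.15. Steps were tested on simulated data.

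Named genes are the 14 largest ratios in each direction among measured genes with at least 100 CPM in the higher class and the same direction in all cells (without marker, ribosomal protein, mitochondrial, haemoglobin and provisional symbols), the 13 markers, up to 5 members of each list at least 2-fold apart and 2 within 2-fold, and the 8 highest genes of each kind without a ratio. Other list members named with their levels (such as Fasn, Abca3, Yap1 or Foxa2) were chosen for their known role after their values were seen. The members and lists were chosen with earlier results of these data known. A few named genes are not reported here. Doublets were not called. Alternatives were the cells taken, the scaling, thinning and the CPM minimum.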

Additional observations from a re-analysis of the deposited data

How the results depend on the processing

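The counts of genes at least 2-fold apart moved most with the scaling and the minimum level. Against 508 higher and 1680 lower in AT2, the trimmed mean of log ratios gave 953 and 775, the median of ratios 943 and 783, a mean of at least 100 CPM 244 and 474, and no CPM minimum 1035 and 3769. The last 2 settings test different numbers of genes (1359 and 10175 against 4689). The median of the interferon-stimulated list was -2.11 and became 1.58 with the 100 CPM minimum, which left fewer genes and was applied to list medians after the data were seen. The same minimum moved the medians of cholesterol genes from 1.72 to 2.35, of surfactant processing from 1.47 to 2.23 and of ion and water transport from -1.36 to -2.15. Without a CPM minimum these medians were 1.71, 0.12 and -0.68. Of the 166 named genes at least 2-fold apart, 155 kept the direction and at least 2-fold under each of the 9 settings that give a ratio per gene (all cells, cells above the median marker sum, cells without other markers, 4 other totals or scalings, per-cell means and thinned cells). The log2 ratios of the most extreme genes moved by over 1.5 times on the linear scale when all cells were summed, as given for the largest in each direction. No paired analysis was possible because each group is 1 library, and for the same reason no replicate could be left out. Depth limits the genes with 3 UMIs or fewer in the lower class to the wide intervals printed, and a count of 0 to a bound.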
